A study of Mus musculus with 2 samples.

Results

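The cells described here were type 1 conventional dendritic cells (cDC1) among the leukocytes of B16-F0 mouse melanomas, 145 cells in the wild-type (WT) library and 150 in the knockout (KO) library. They were chosen by their own counts of unique molecular identifiers (UMIs, each marking 1 captured RNA molecule). A member held at least 2 UMIs of Xcr1 and Clec9a together, at most 1 UMI of Cd209a, at most 1 of Cd3d and Cd3e together, at most 1 of Cd79a, none of Ncr1, and not 2 or more UMIs of both Fscn1 and Ccr7. The choice was made among 11153 WT and 11131 KO cells that held at least 1000 UMIs and 500 genes and a mitochondrial share of at most 10%. Members made up 1.30% of the kept WT cells (exact 95% interval 1.10 to 1.53) and 1.35% of the kept KO cells (1.14 to 1.58), a log2 ratio of 0.05 (interval -0.28 to 0.38).

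The tumours were of B16-F0, a transplantable mouse melanoma line, and living CD45+ leukocytes had been sorted from them for droplet capture with a 3' single-cell kit. The labels name 1 WT and 1 KO sample and no treatment, and they do not name the inactivated gene, so the genotype could not be checked on a target gene. They call the cells tumour-infiltrating regulatory T cells, while the stated sort and the counts hold many kinds of leukocyte. With 1 library a genotype there was no replicate and no test of KO against WT: each interval of such a ratio is a 95% interval for counting error alone, and genotype, animal and library cannot be told apart.

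Type 1 conventional dendritic cells develop under the transcription factors Irf8, Batf3 and Id2. They bind dying cells through receptors such as Clec9a, pass antigen from them to MHC class I for CD8+ T cells (cross-presentation, for which Wdfy4 is needed), and meet T and NK cells through Xcr1, the receptor of the chemokine Xcl1. In tumours they can make Cxcl9 and Cxcl10, chemokines induced by interferon gamma that attract T cells bearing Cxcr3.

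Members were deeply counted. A WT member held between 1855 and 68368 UMIs with a median of 18251, and a KO member between 2513 and 53073 with a median of 16630, against medians of 5191 and 6360 over all kept cells. Levels are given as counts per 1000000 UMIs (CPM) of the members' summed UMIs, 2916849 in WT and 2688346 in KO. Of the 42 barcodes present in both libraries, 1 was a KO member and 0 were WT members.

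The label was checked on genes that the choice did not use. Irf8 had a UMI in 97.9% of WT and 98.0% of KO members, Naaa, a lysosomal amidase, in 89.0% and 91.3%, and Wdfy4 in 87.6% and 87.3%. Batf3 was detected in 85.5% and 86.0%, the double-stranded RNA sensor Tlr3 in 63.4% and 70.7%, and the integrin Itgae (CD103) in 66.9% and 62.7%. In B cells Batf3 had a UMI in 1.13% of WT and 1.35% of KO cells, at medians of 3372 and 3524 UMIs. Tlr3 (0.934% and 0.897%) and Itgae (0.412% and 1.35%) were likewise near absent from WT and KO B cells, while Wdfy4 (28.7% and 27.1%) and Irf8 (54.6% and 54.3%) were not. With every cell thinned to 3000 UMIs, Batf3 was detected in 35.4% of WT and 48.99% of KO members and in 0.569% and 0.604% of B cells. Batf3 does not set members apart from mature dendritic cells, which held 239 and 226 CPM of it in WT and KO against 202 and 267 CPM in members. Wdfy4, Naaa and Irf8 were all present in 84.1% of WT and 84.7% of KO members.

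The edge of the choice was less pure than its core. All 3 of these genes were present in 100% of the 47 WT and 53 KO members with 10 or more Xcr1 and Clec9a UMIs, and in 58.8% of the 34 WT and 57.7% of the 26 KO members with exactly 2. Just outside, among cells with exactly 1 such UMI that met every other limit, the share was 22.5% of 71 WT and 30.5% of 82 KO cells. Members with 2 or more UMIs of Siglech, a receptor of plasmacytoid dendritic cells (pDC), went against the label: Batf3 had a UMI in 31.3% of 16 such WT cells and in 0 of 11 such KO cells. By another limit, 15 WT members (10.3%, interval 5.91 to 16.5), overlapping with the WT Siglech group, and 5 KO members (3.33%, 1.09 to 7.61) held 10 or more UMIs of the macrophage complement genes C1qa, C1qb and C1qc. These 15 WT cells had a median of 38510 UMIs and carried 18.7% of all WT members' UMIs and 88.0% of the WT UMIs of a 12-gene macrophage list, whose summed level over all members was 1697 CPM in WT and 486 CPM in KO. Scrublet, a doublet caller, marked 13 WT (8.97%) and 7 KO (4.67%) members. Results are therefore given over all members and again over a stricter set of 113 WT and 134 KO members, chosen after the data had been seen, that held no such C1q or Siglech counts and fewer than 3 UMIs of S100a8 and S100a9.

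**Figure D1:**
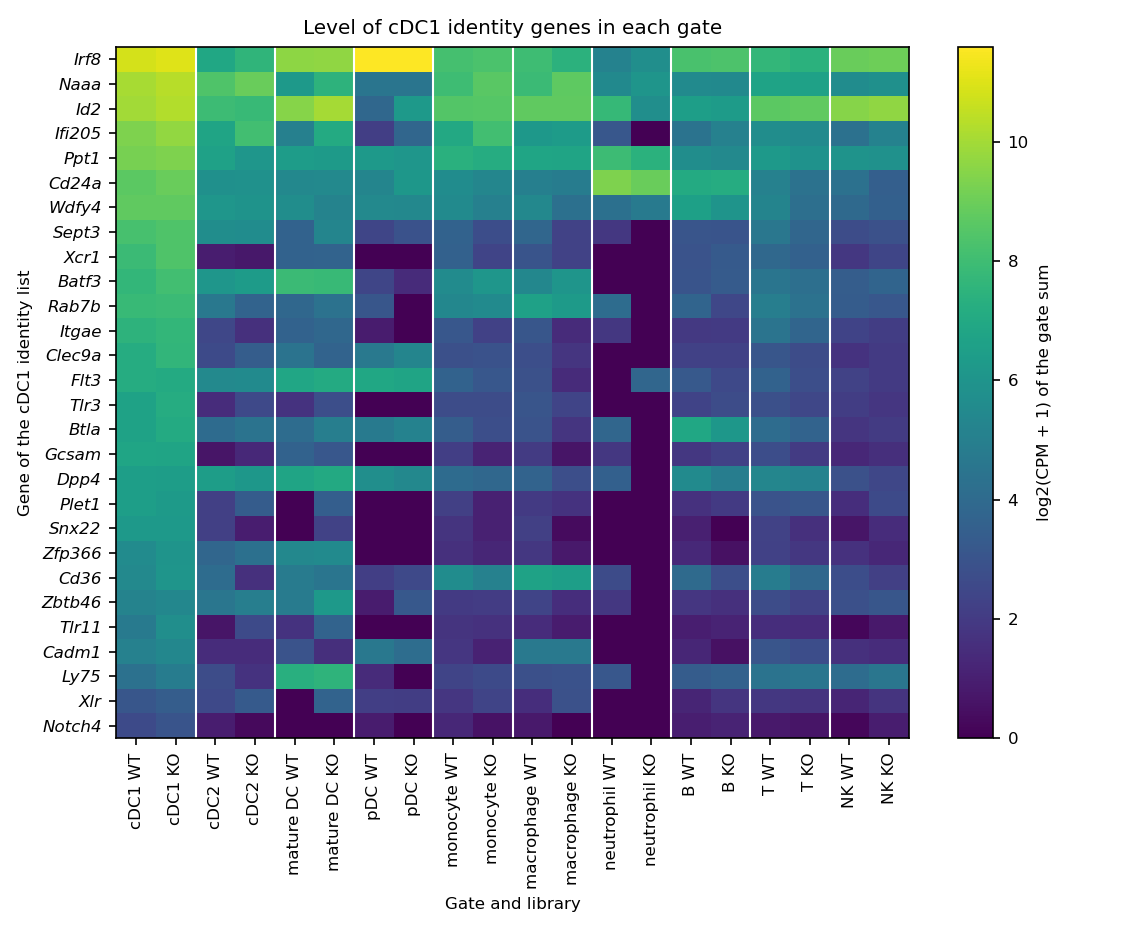
Level of the 28 genes of the cDC1 identity list (vertical) in 10 gates of each library (horizontal), as log2(CPM + 1) of the summed UMIs by colour. Naaa, Xcr1, Itgae and Tlr3 are brightest in the cDC1 columns, while Irf8 is brighter in pDC (3081 and 3092 CPM in WT and KO). Other genes brighter elsewhere include Ly75 and Dpp4 in mature dendritic cells, Cd36 in macrophages, Cd24a in WT neutrophils and Batf3 in WT mature dendritic cells.

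Among the identity genes, the transcription factor Irf8 stood at 1821 CPM in WT and 2092 CPM in KO, Id2 at 1005 and 1237 CPM and Batf3 at 202 and 267 CPM. Naaa (1076 and 1309 CPM), the interferon-inducible Ifi205 (659 and 845 CPM) and Wdfy4 (430.3 and 437 CPM) were likewise abundant, and Flt3, the growth factor receptor of dendritic cells, stood at 142 and 134 CPM. A gene was called between the libraries when it differed at least 1.5-fold with an interval that excluded no difference, among the 9396 genes with at least 20 UMIs. By that rule 8.4% of all genes were called, 3.61% higher and 4.79% lower in KO. Of the 28 identity genes 3 were called higher and 0 lower, with a median log2 ratio of 0.27 against 0.02 over all genes. The 28 include Xcr1 and Clec9a, which chose the cells, and the other 26 gave the same counts and a median of 0.26. Tlr11, a sensor of flagellin and profilin, stood at 26.7 CPM in WT and 52.1 CPM in KO (log2 ratio 0.96, interval 0.55 to 1.38). The scavenger receptor Cd36 stood at 42.9 and 65.5 CPM (log2 ratio 0.61, interval 0.27 to 0.95) and the endocytic receptor Ly75 (DEC-205) at 18.9 and 28.6 CPM (log2 ratio 0.60, interval 0.09 to 1.13). Neither Cd36 nor Ly75 was highest in cDC1. Cd36 stood at 102 and 88.7 CPM in WT and KO macrophages, and Ly75 at 157 and 184 CPM in mature dendritic cells. Ly75 lost its call in the stricter set, where the list's median was 0.17 against 0.08 over all genes. Xcr1 (242 and 338 CPM) and Clec9a (143 and 199 CPM) chose the cells, so their levels are a description only.

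Summed UMIs of cDC1 were compared with those of cDC2 (235 WT and 384 KO cells, chosen by Cd209a), mature dendritic cells (30 and 39, chosen by Fscn1 and Ccr7) and pDC (134 and 68) by edgeR's quasi-likelihood test over 8 sums, with the library as a block. The gates were set on the same cells' counts, so genes expressed with the gate genes were bound to differ, and the counts describe the gates. The 2 sums of a gate also differ in genotype, which enters the spread. Against cDC2, 10.2% of 9802 genes were higher and 10.1% lower in cDC1 at a false discovery rate of 0.05, and 22 of 25 identity genes were higher and 0 lower. Itgae stood at 181 and 203 CPM in WT and KO cDC1 against 4.51 and 2.00 CPM in cDC2 (log2 5.94, SE 0.25, edgeR adjusted p = 1.1e-07). Gcsam, a signalling adaptor first known from germinal centre B cells, stood at 112 and 109 CPM in WT and KO cDC1 against 0.601 and 1.56 CPM in cDC2 (log2 6.52, SE 0.28, edgeR adjusted p = 3.1e-07). Both genes were higher in cDC1 in each library. Lower in cDC1 were the calcium-binding S100a4, at 338 and 263 CPM in WT and KO cDC1 against 3792 and 3962 CPM in cDC2 (log2 -3.70, SE 0.15, edgeR adjusted p = 1.0e-07), and the lectin Clec10a, at 37.03 and 23.4 CPM in WT and KO cDC1 against 449.7 and 515 CPM (log2 -3.98, SE 0.19, edgeR adjusted p = 2.4e-07).

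Cell cycle genes, which no gate used, were higher in cDC1 than in every other dendritic gate. Of 27 such genes 25 were higher and 0 lower than in cDC2 (median log2 1.89 against 0.01 over all genes). Against mature dendritic cells 13 were higher and 0 lower, where 12.8% of all genes were higher and 13.9% lower, and against pDC 26 were higher and 0 lower, where 18.8% of all genes were higher and 17.1% lower. Mki67, a marker of dividing cells, stood at 124 and 193 CPM in WT and KO cDC1 against 49.9 and 20.7 CPM in cDC2 (log2 2.26, SE 0.35, edgeR adjusted p = 7.8e-04). Median UMIs a cell were also lower in the other gates, at 12258 in WT and 10443 in KO cDC2, and the part of depth was not tested. Type I interferon response genes were lower than in cDC2, with 0 of 24 higher and 15 lower (median -1.03). They were 0 higher and 7 lower against mature dendritic cells (median -0.94), and 2 higher and 3 lower against pDC (median 0.63). Cxcl9 stood at 192 and 412 CPM in WT and KO cDC1 against 154 and 422 CPM in cDC2 and did not pass the test (log2 0.15, SE 0.27, edgeR adjusted p = 0.78). All 24 measured maturation genes were lower in cDC1 than in mature dendritic cells, among them Il12b, a subunit of interleukin-12, at 1.37 and 0.372 CPM in WT and KO cDC1 against 522 and 222 CPM. MHC class II genes were higher than in pDC (12 of 14, 0 lower), as were 7 of 14 than in mature dendritic cells, where 3 were lower, while against cDC2 2 of 14 were higher and 5 lower.

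Between the genotypes, genes of the interferon gamma response were mostly higher in KO cDC1. Of 23 measured genes 10 were called higher and 1 lower (median log2 ratio 0.56). In the stricter set 15 of 22 were called higher and 0 lower (median 1.05). Of all 8800 genes there, 4.39% were higher and 2.32% lower. That set left out 32 WT members with 26.8% of the WT members' UMIs and 16 KO members with 8.48%. Its S100a8 and S100a9 limit left out 2 WT and 0 KO cells. A left-out WT cell with 96 C1q UMIs stood at 6167 CPM for the list without Cxcl9, against a WT median of 1273 CPM. The part of such cells in the larger median was not tested. The difference between the libraries was not particular to cDC1. In cDC2 20 of 23 genes of the list were called higher in KO and 0 lower (median 1.10), where 3.45% of all 9744 genes were called each way.

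**Figure D2:**
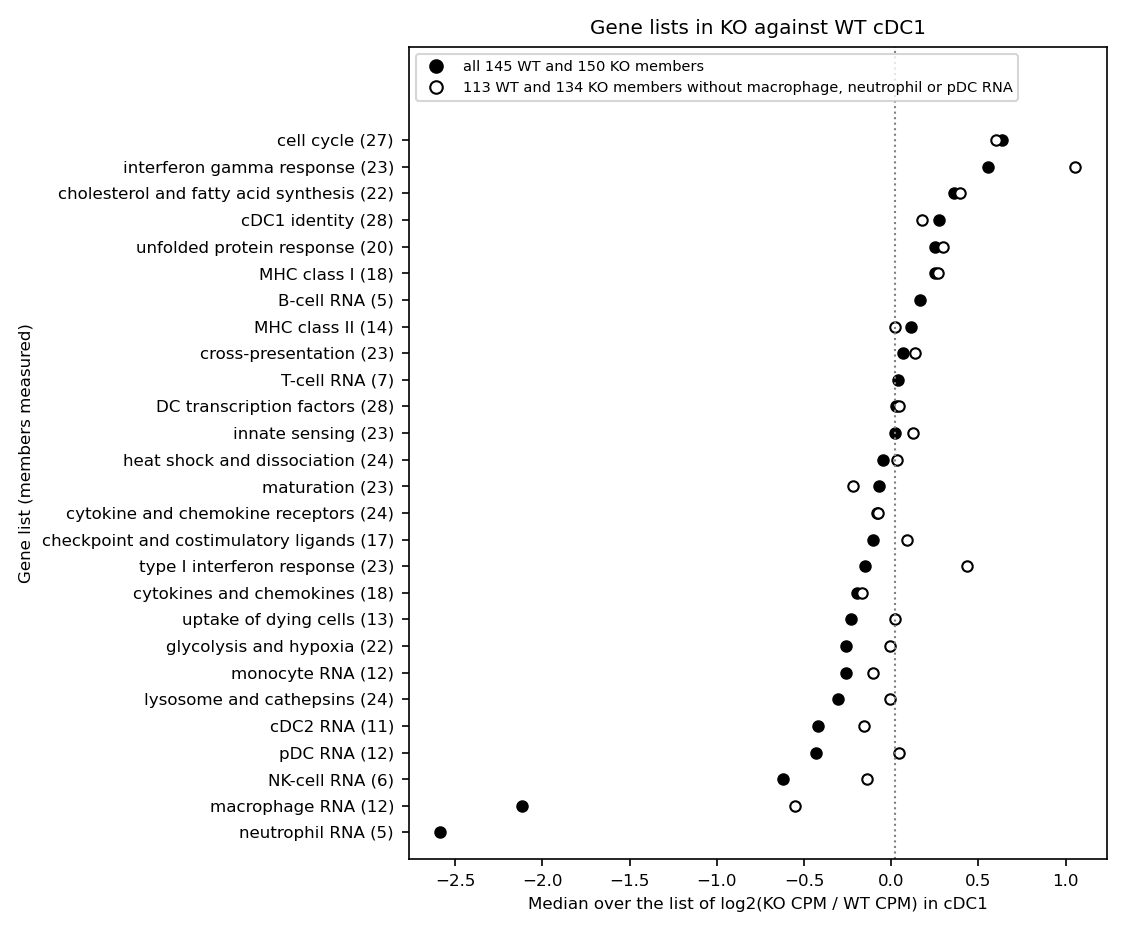
Median log2 ratio of CPM, KO over WT (horizontal), of each gene list with at least 5 measured genes (vertical), over all members (filled) and in the stricter set (open, where at least 5 genes were measured); the dotted line is the median of all genes. The interferon gamma list moves from 0.56 to 1.05 between the sets, and the macrophage and neutrophil lists lie lowest, at -2.12 and -2.59 over all members.

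Cxcl9 (chromosome 5, 92321347 to 92328079, minus strand, GRCm38) stood at 192 CPM in WT and 412 CPM in KO (log2 ratio 1.10, interval 0.96 to 1.25), and at 104 and 449.5 CPM in the stricter set (log2 ratio 2.12, 1.91 to 2.33). The stricter set leaves out WT cells rich in Cxcl9, among them 1 with 96 C1q UMIs at 5056 CPM, and their part in the larger ratio was not tested. Cxcl9 was detected in 17.2% of WT and 36% of KO members. After thinning to 3000 UMIs a cell the shares were 11.1% and 22.1%, against 0.911% and 1.21% of B cells thinned alike. Few cells held most of it: the 5 highest carried 73.0% of the WT and 50.2% of the KO UMIs. The KO library was higher in other myeloid gates too, with cDC2 at 154 and 422 CPM, log2 ratio 1.46, and monocytes at 233 and 663 CPM, log2 ratio 1.51. For the cDC2 comparison, 3.45% of 9744 genes were called higher and 3.45% lower in KO.

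The same list holds GTPases that act against intracellular microbes and regulators of the interferon signal. Iigp1, such a GTPase, stood at 23.7 CPM in WT and 90.4 CPM in KO (log2 ratio 1.93, interval 1.54 to 2.34), Irgm1 at 44.2 and 82.2 CPM (log2 ratio 0.89, interval 0.57 to 1.22) and Gbp5 at 12.7 and 26.04 CPM (log2 ratio 1.04, interval 0.44 to 1.65). Socs1, which damps cytokine signalling, stood at 25.4 and 58.03 CPM (log2 ratio 1.19, interval 0.79 to 1.61), and Irf1, a transcription factor induced by interferon gamma, at 50.1 and 85.9 CPM (log2 ratio 0.78, interval 0.47 to 1.09). The serine protease inhibitor Serpina3g stood at 36.00 and 115 CPM (log2 ratio 1.67, interval 1.35 to 2.01). Iigp1, Irgm1, Gbp5, Socs1, Irf1 and Serpina3g were called higher over all members and in the stricter set.

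Cxcl10 and Gbp2 differed between the sets of members. Cxcl10 stood at 39.1 CPM in WT and 68.8 CPM in KO (log2 ratio 0.82, interval 0.47 to 1.17), but 42.7% of its KO UMIs lay in 1 cell, the stricter set gave 28.6 and 39.02 CPM and no call, and among members with both Xcr1 and Clec9a the log2 ratio was -0.49. Gbp2, a guanylate-binding protein, stood at 89.8 CPM in WT and 58.03 CPM in KO (log2 ratio -0.63, interval -0.93 to -0.34) with 41.98% of its WT UMIs in 1 cell, and at 20.1 and 60.6 CPM in the stricter set (log2 ratio 1.59, 1.09 to 2.11).

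**Figure D3:**
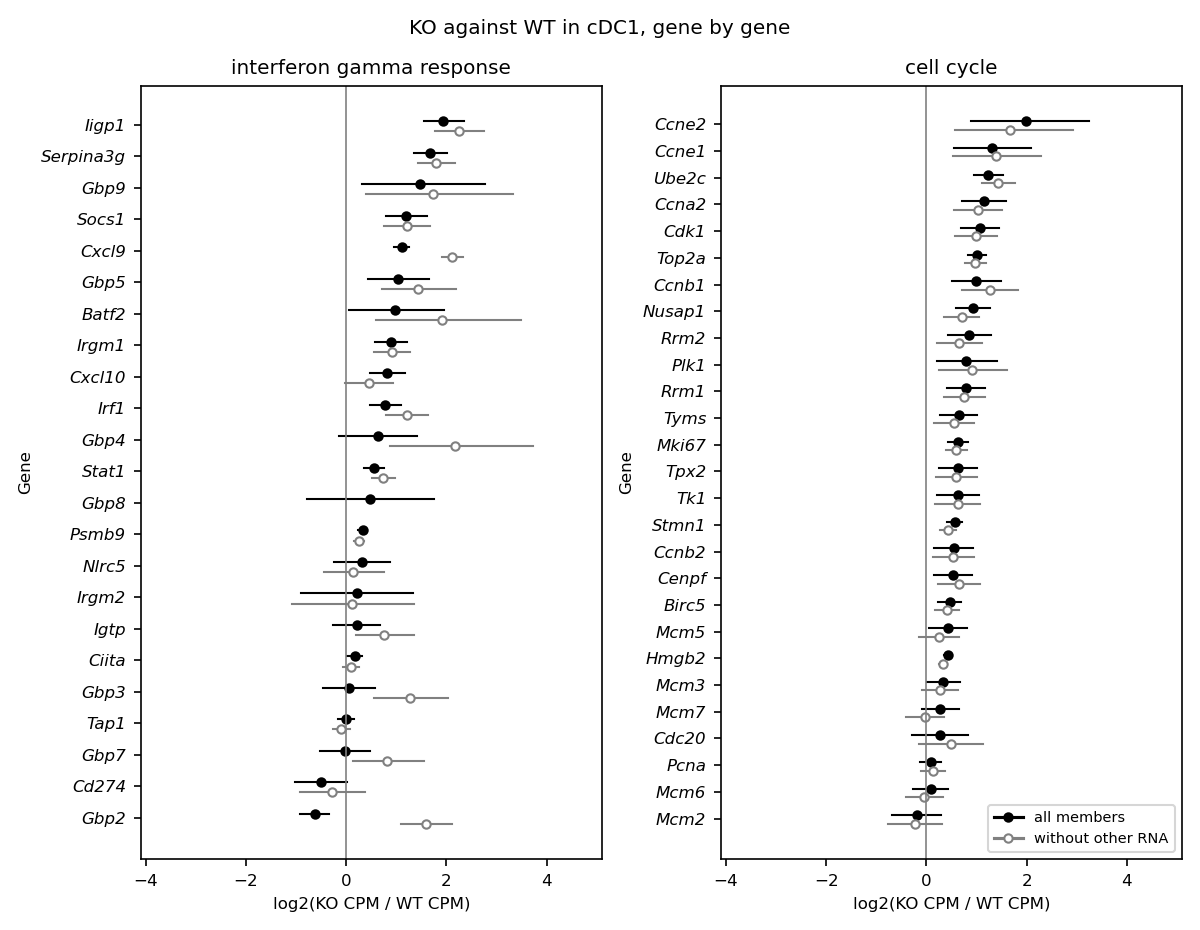
Log2 ratio of CPM, KO over WT (horizontal), of each measured gene of the interferon gamma and cell cycle lists (vertical) in cDC1, with 95% counting intervals (lines), over all members (filled) and in the stricter set (open). Iigp1 lies at 1.93 over all members, Gbp2 changes side between the sets (-0.63 and 1.59), and Mcm2 lies left of 0 in both.

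Per cell, the list's summed level without Cxcl9 had a median of 1273 CPM in WT (quartiles 1022 and 2006) and 1677 CPM in KO (quartiles 1270 and 2504), so the cells of the libraries overlapped widely. Antigen-presentation genes differed less. Of 18 MHC class I genes 0 were called either way, with a median of 0.25. All 18 had a log2 ratio above 0, against 4932 of all 9396 genes. The immunoproteasome subunit Psmb9 stood at 587 CPM in WT and 737 CPM in KO (log2 ratio 0.33, interval 0.23 to 0.42). The proteasome activator subunit Psme1 stood at 924 and 1144 CPM and Psme2, another, at 396 and 504 CPM. Of 14 MHC class II genes 0 were called higher and 1, the protease Lgmn, lower. H2-Ab1, an MHC class II chain, stood at 7198 and 8167 CPM. Of 23 cross-presentation genes 0 were called higher and 1, the oxidase subunit Cybb, lower, and neither Lgmn nor Cybb was called in the stricter set.

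Promoters of 4 of these genes are shown to set windows that hold a motif of interferon signalling beside windows that do not. The motif GAAANNGAAA, to which interferon regulatory factors bind, and TTCNNNGAA, the palindrome to which Stat dimers bind, were searched on both strands in the 250 bases before each gene's start in RefSeq (GRCm38.p6), overlapping matches included. GAAANNGAAA was present for 9 of the 15 interferon gamma genes that have a window (60%) and TTCNNNGAA for 6 (40%), against 3.46% and 8.13% of all 27025 genes. Of the 23 cell cycle genes with a window 0 held GAAANNGAAA and 1 held TTCNNNGAA. A match describes letters in a window and is not a binding site. The sequences run 5′ to 3′ along the gene's strand, and capitals mark the matches. Irf1 has another window (chr11:53770223-53770472, plus strand), not shown, that holds neither motif. The Socs1 window (chr16:10785537-10785786, minus strand) holds 2 overlapping GAAANNGAAA matches and the Cxcl10 window (chr5:92348890-92349139, minus strand) 1. The Irf1 window shown (chr11:53769764-53770013, plus strand) holds 1 TTCNNNGAA match, and the Cxcl9 window (chr5:92328080-92328329, minus strand) neither motif.
Socs1: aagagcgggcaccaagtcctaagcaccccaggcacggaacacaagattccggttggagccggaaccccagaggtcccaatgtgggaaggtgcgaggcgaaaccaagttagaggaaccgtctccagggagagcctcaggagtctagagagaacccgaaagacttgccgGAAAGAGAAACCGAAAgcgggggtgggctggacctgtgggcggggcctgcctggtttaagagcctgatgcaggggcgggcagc
Cxcl10: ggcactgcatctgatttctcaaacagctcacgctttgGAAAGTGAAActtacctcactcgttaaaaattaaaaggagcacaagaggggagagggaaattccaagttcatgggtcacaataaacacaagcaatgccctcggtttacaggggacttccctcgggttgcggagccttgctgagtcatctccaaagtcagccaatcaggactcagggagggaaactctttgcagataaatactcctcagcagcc
Irf1: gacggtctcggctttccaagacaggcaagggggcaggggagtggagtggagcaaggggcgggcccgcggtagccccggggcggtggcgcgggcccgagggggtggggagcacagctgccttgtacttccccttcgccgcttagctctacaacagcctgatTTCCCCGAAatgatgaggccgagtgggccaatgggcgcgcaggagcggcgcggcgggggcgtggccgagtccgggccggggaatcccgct
Cxcl9: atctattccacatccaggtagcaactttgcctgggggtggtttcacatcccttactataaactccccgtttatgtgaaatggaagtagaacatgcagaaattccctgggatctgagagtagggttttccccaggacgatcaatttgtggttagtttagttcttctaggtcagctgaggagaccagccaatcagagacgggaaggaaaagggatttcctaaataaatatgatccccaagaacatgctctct

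Type I interferon genes gave no common direction over all members: of 23 measured genes 3 (Ifi44, Isg20 and Phf11d) were called higher and 5 (Ifit3, Rsad2, Oasl1, Ddx58 and Rtp4) lower (median -0.15), and in the stricter set 6 of 20 higher and 0 lower (median 0.43). With both Xcr1 and Clec9a required, 2 of 22 were higher and 10 lower (median -0.52), and with at least 3 UMIs of these genes 2 of 22 were higher and 8 lower (median -0.43), so the direction differed with the choice of cells. In cDC2 18 of 24 were called higher in KO and 0 lower (median 0.88). Ifi44, an interferon-induced gene, stood at 16.5 CPM in WT and 67.3 CPM in KO (log2 ratio 2.03, interval 1.57 to 2.52) and was detected in 17.9% of WT and 35.3% of KO members. Its neighbour Ifi44l (chromosome 3, 151758737 to 151762892, minus strand, GRCm38) had 0 UMIs in WT and 49 UMIs in 20% of KO members. Against a floor of 3 UMIs over the WT sum its KO level was 17.7-fold higher, a ratio that leaves out the counting error of the KO UMIs. Isg20, an RNA exonuclease, stood at 25.03 and 45.01 CPM (log2 ratio 0.85, interval 0.42 to 1.29). The antiviral genes Ifit3 (21.3 and 4.09 CPM) and Rsad2 (48.7 and 19.7 CPM) were called lower in KO, but 1 WT cell held 80.6% and 67.6% of their WT UMIs. With the highest cell left out, the log2 ratio of Rsad2 was 0.12.

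To describe where the interferon genes lay, members with a Cxcl9 UMI were compared with those without in each library, 25 against 120 WT cells and 54 against 96 KO cells. Of the other interferon gamma genes 15 of 18 were higher and 0 lower in WT (median log2 ratio 1.76), where 4.85% of all genes were higher and 5.93% lower. In KO 17 of 20 were higher and 0 lower (median 1.52), where 4.71% were higher and 4.72% lower. Of the type I interferon genes 19 of 22 were higher in WT and 12 of 19 in KO. Gbp2 stood, with and without Cxcl9, at 392 and 20.2 CPM in WT and 138 and 10.1 CPM in KO. Serpina3g stood at 165 and 6.33 CPM in WT and 249 and 35.05 CPM in KO. Single cells weigh in these values: 1 WT member held 41.98% of the WT Gbp2 UMIs, and the WT member with the highest Cxcl9 level (11210 CPM), which had 2 Xcr1 and Clec9a UMIs, stood at 13815 CPM for the rest of the interferon gamma list. The identity list had medians of 0.05 in WT and 0.04 in KO. Cell cycle genes were lower for 17 of 24 and higher for 0 in WT, and higher for 8 of 25 and lower for 0 in KO. Macrophage genes were higher for 3 of 12 and lower for 2 in WT, and higher for 1 of 9 and lower for 5 in KO, and NK-cell genes higher for 3 of 6 in WT and 3 of 5 in KO. The pDC genes were lower for 5 of 12 in WT (median -0.88) and 10 of 11 in KO (median -2.75) and higher for 0, and neutrophil genes were higher for 3 of 4 in WT (median 2.38) and lower for the 1 measured in KO. The part of that RNA in the result was not tested. Median UMIs with and without Cxcl9 were 19456 and 18161 in WT and 16507 and 16668 in KO.

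**Figure D4:**
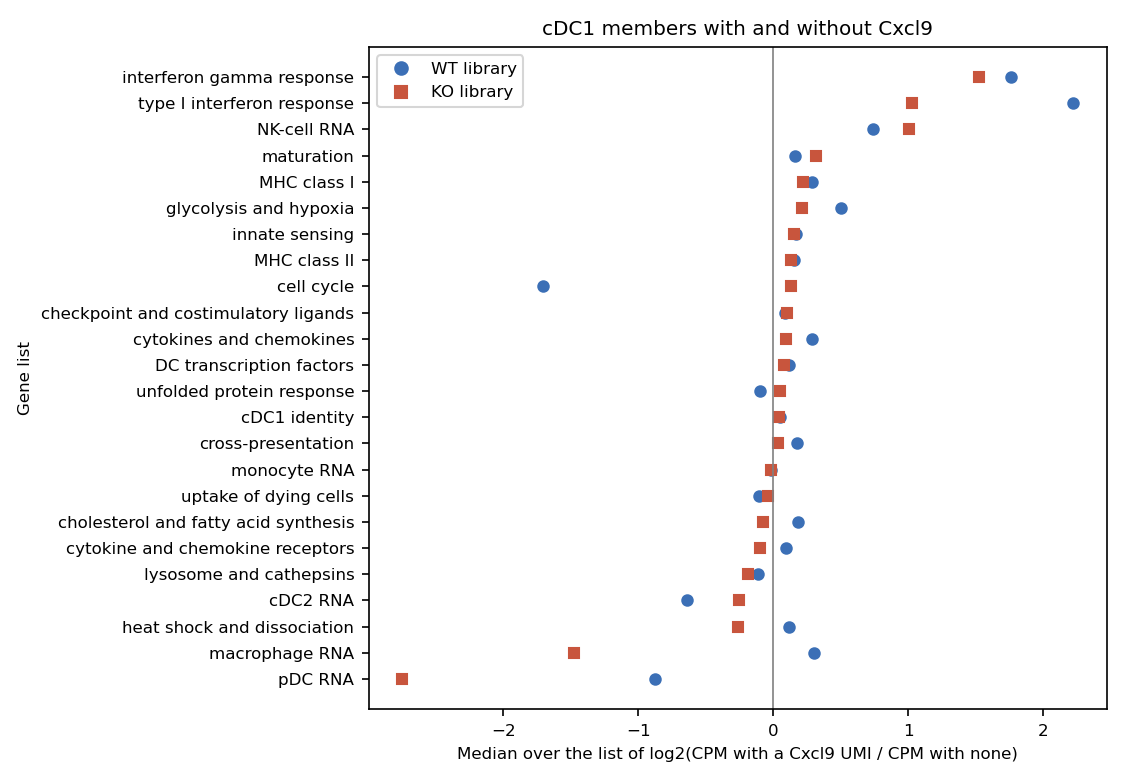
Median log2 ratio of CPM between members with a Cxcl9 UMI and those with none (horizontal) for each gene list (vertical), in the WT (circles) and KO (squares) library. The interferon gamma list lies at 1.76 and 1.52, and the cell cycle list at -1.71 in WT and 0.13 in KO.

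Cell cycle genes were another group higher in KO cDC1. Of 27 measured genes 15 were called higher and 0 lower (median 0.63), and the same counts were found in the stricter set (median 0.60). Ube2c, a ubiquitin-conjugating enzyme of mitosis, stood at 49.03 CPM in WT and 115 CPM in KO (log2 ratio 1.23, interval 0.94 to 1.53), and the DNA topoisomerase Top2a at 129 and 260.4 CPM (log2 ratio 1.01, interval 0.83 to 1.20). Ccna2 (cyclin A) stood at 22.6 and 50.2 CPM (log2 ratio 1.15, interval 0.72 to 1.60), Ccne2 (cyclin E) at 3.09 and 12.3 CPM (log2 ratio 1.99, interval 0.90 to 3.24) and Mki67 at 124 and 193 CPM (log2 ratio 0.63, interval 0.44 to 0.83). In cDC2 the direction was the opposite, with 0 of 26 called higher and 15 lower (median -0.79), and with Ube2c at 31.8 and 17.6 CPM, log2 ratio -0.86, Top2a at 55.3 and 30.7 CPM, log2 ratio -0.85 and Mki67 at 49.9 and 20.7 CPM, log2 ratio -1.27. The 5 highest cDC2 held 45.7% of the WT and 36.5% of the KO UMIs of the list there, and its level in the median cDC2 was 247 CPM in WT and 278 CPM in KO.

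The share of members with an Mki67 or Top2a UMI differed within its counting error, at 44 WT cells (30.3%, interval 22.99 to 38.5) and 58 KO cells (38.7%, 30.8 to 47.0). These cells were deeper, with medians of 25124 against 15454 UMIs in WT and 24072 against 13618 in KO. Compared with the other members they were lower in 6 of 18 interferon gamma genes in WT and 10 of 20 in KO and higher in 1 in each. The pDC genes were lower in 8 of 12 in WT (median -0.75) and 11 of 11 in KO (median -4.72) and higher in 0, and macrophage genes were higher in 8 of 12 and lower in 1 in WT, and higher in 1 of 9 and lower in 5 in KO. The part of depth and of this other RNA was not tested. Over all genes 8.95% were higher and 4.15% lower in WT, and 10.5% higher and 6.83% lower in KO.

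**Figure D5:**
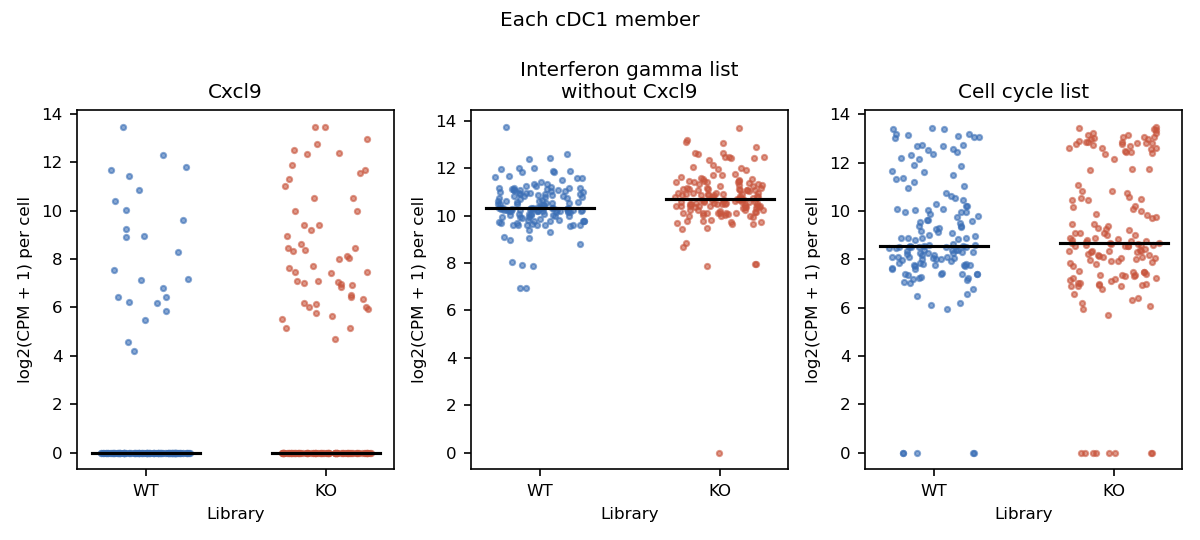
Level in each member, as log2(CPM + 1) per cell (vertical), of Cxcl9, of the interferon gamma list without Cxcl9 and of the cell cycle list, in the WT and KO libraries; bars are medians. Most cells lie at 0 for Cxcl9 in both libraries, and the cell cycle medians are close (377 and 408 CPM) while the upper quartiles are 1184 CPM in WT and 3021 CPM in KO.

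Members also differed by Itgae, which 97 WT (66.9%) and 94 KO (62.7%) cells held. Cells with Itgae were deeper (medians of 21037 against 12392 UMIs in WT and 18624 against 10694 in KO). In each library 14 of 26 identity genes were higher and 0 lower in them, and cell cycle genes were higher for 21 of 24 in WT and 18 of 25 in KO. These 26 identity genes include Xcr1 and Clec9a, which chose the cells, and Xcr1 was among the higher ones (log2 ratios 1.81 in WT and 1.53 in KO). Over all genes 6.54% were higher and 8.38% lower in WT, and 5.17% higher and 8.67% lower in KO. Sterol genes were lower for 5 of 22 in WT and 12 of 22 in KO. The pDC genes were lower for 12 of 12 and 11 of 11, so pDC RNA was higher in the cells without Itgae. Macrophage genes were higher in the cells with Itgae for 5 of 12 and lower for 1 in WT, and higher for 4 of 9 and lower for 4 in KO. The part of depth and of pDC and macrophage RNA in these differences was not tested.

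Sterol synthesis genes were higher in KO by less than cell cycle genes. Of 22 measured genes of cholesterol and fatty acid synthesis 6 were called higher and 0 lower (median 0.36), and 4 and 0 in the stricter set (median 0.40). Among cells with at least 1 Xcr1 or Clec9a UMI 0 of 22 were called either way (median 0.23). Hmgcs1, an early enzyme of the mevalonate pathway, stood at 115 CPM in WT and 184 CPM in KO (log2 ratio 0.68, interval 0.48 to 0.89). Fdps stood at 312 and 479.9 CPM, Idi1 at 97.7 and 149.9 CPM and the demethylase Cyp51 at 91.2 and 139 CPM, and these 3 fell short of 1.5-fold in the stricter set (log2 ratios 0.56, 0.51 and 0.54). Of 20 unfolded protein response genes 2 were called higher and 1, Ppp1r15a, lower, the higher ones being the endoplasmic reticulum proteins Sdf2l1 (181 and 294 CPM, log2 ratio 0.70, interval 0.54 to 0.86) and Creld2 (43.5 and 71.05 CPM, log2 ratio 0.71, interval 0.38 to 1.04).

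Other genes higher in KO were Dnase1l3, a secreted nuclease that degrades DNA of dying cells, at 18.2 CPM in WT and 62.1 CPM in KO (log2 ratio 1.77, interval 1.32 to 2.25), the bicarbonate transporter Slc4a8 at 5.49 and 20.1 CPM (log2 ratio 1.87, interval 1.05 to 2.78) and Ccdc122 at 4.80 and 17.9 CPM (log2 ratio 1.90, interval 1.01 to 2.87). Dnase1l3 was detected in 16.6% of WT and 32.7% of KO members, against 1.37% and 2.47% of B cells. It was also higher in KO in mature dendritic cells (20.5 and 57.4 CPM), pDC (7.71 and 19.9 CPM) and cDC2 (0.601 and 3.33 CPM). In mature dendritic cells Slc4a8 stood at 82.1 CPM in WT and 148 CPM in KO, and Ccdc122 at 27.4 and 25.7 CPM. Upp1, a uridine phosphorylase (7.20 and 33.9 CPM), and Ly6i (2.40 and 14.9 CPM) rested on single KO cells that held 58.2% and 72.5% of their KO UMIs.

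The 12 genes with the clearest lower level in KO were Mt2, Pmp22, Ccl12, Igf1, Folr2, Igfbp4, Ccl8, Timp2, Gas6, Cbr2, Ms4a7 and Enah, several of them known from macrophages. Ccl12, a chemokine for monocytes, stood at 137 CPM in WT and 8.56 CPM in KO and was detected in 13.8% of WT and 6.67% of KO members. Timp2, a metalloproteinase inhibitor, stood at 61.02 and 5.58 CPM, and Folr2, a folate receptor of resident macrophages, had 33 WT and 0 KO UMIs. Beside them, 11 of 12 genes of the macrophage list were called lower and 0 higher (median -2.12). In cDC2 8 of 12 genes of that list were also called lower in KO and 1 higher (median -0.81), where 3.45% of all genes were called each way. In the stricter set Pmp22, Ccl12, Igf1, Folr2, Igfbp4, Timp2, Gas6, Cbr2 and Ms4a7 had fewer than 20 UMIs, Ccl8 stood at 3.75 and 4.88 CPM with no call, and the metallothionein Mt2 kept its call (12.6 and 0.406 CPM). For Enah, a regulator of actin, 1 WT cell held 92.7% of the WT UMIs, and the log2 ratio without the highest cell was 0.79. Of the genes called lower, 148 of 450 (32.9%) were also called lower in the stricter set, against 237 of 339 (69.9%) of those called higher. Fewer calls were shared in other sets of cells. A set without cells that held 5 or more UMIs of the cell cycle list, called cycling cells below, shared 39 lower (8.67%) and 48 higher (14.2%). That limit is on raw UMIs, so it also left out deep cells with a low level of the list, and 6136 genes were tested. With every cell thinned to 3000 UMIs 47 lower (10.4%) and 36 higher (10.6%) were shared. Lysosome genes were called lower for 8 of 24 over all members and for 4 of 24 in the stricter set, with the protease Ctsd at 234 CPM in WT and 41.3 CPM in KO over all members and at 27.2 and 13.4 CPM in the stricter set.

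A few genes lower in KO were spread over many cells and kept their call in the stricter set. Ctse (chromosome 1, 131638306 to 131675505, plus strand, GRCm38), the aspartic protease cathepsin E, stood at 49.03 CPM in WT and 17.9 CPM in KO (log2 ratio -1.46, interval -1.96 to -0.98) and at 47.3 and 15.9 CPM in the stricter set. It was detected in 50.3% of WT and 24.7% of KO members, and in 32.3% of WT and 15.2% of KO B cells. In cDC2 Ctse differed in the same direction (24.3 and 9.78 CPM, log2 ratio -1.31). Lta4h, the hydrolase that makes leukotriene B4, stood at 47.3 CPM in WT and 16.4 CPM in KO (log2 ratio -1.53, interval -2.06 to -1.03), in 55.9% of WT and 26% of KO members. Lta4h was also lower in KO in cDC2 (79.6 and 37.1 CPM in WT and KO) and NK cells (84.8 and 29.3 CPM). The other gates went the same way except pDC (35.98 and 38.07 CPM). Mcub, a subunit that limits mitochondrial calcium uptake, stood at 53.8 CPM in WT and 24.2 CPM in KO (log2 ratio -1.15, interval -1.59 to -0.73), in 51.7% of WT and 20.7% of KO members. Mcub was lower in KO in cDC2 (175 and 132 CPM) and T cells (42.7 and 22.3 CPM) too. It was not lower in macrophages (119 and 124 CPM) or mature dendritic cells (36.5 and 37.6 CPM). Lta4h and Mcub were named after their values were seen. The adaptor Samsn1 stood at 53.1 CPM in WT and 18.97 CPM in KO (log2 ratio -1.49, interval -1.97 to -1.02), in 39.3% of WT and 20% of KO members. After thinning to 3000 UMIs a cell, Lta4h was detected in 14.6% and 3.36% and Mcub in 14.6% and 4.03% of members.

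Of 23 maturation genes 1, Ccl17, was called higher and 6 lower, and in the stricter set 0 of 22 higher and 7 lower. The leading ones were rare: Ccr7, the receptor that guides mature dendritic cells to lymph nodes, was detected in 2.76% of WT and 0.667% of KO members (30.5 and 4.09 CPM) and Ccl22, a chemokine of mature dendritic cells, in 2.76% of WT and 2% of KO members (12.3 and 3.35 CPM). Ccr7 was also used in choosing the cells. Of 18 cytokine and chemokine genes 2 (Cxcl9 and Cxcl10) were called higher and 5 (Ccl3, Ccl22, Ccl9, Ccl5 and Tnf) lower, with Ccl3, which attracts monocytes and T cells, at 61.02 CPM in WT and 13.02 CPM in KO (log2 ratio -2.23, interval -2.80 to -1.70) and at 28.6 and 10.97 CPM in the stricter set. Of 28 transcription factors of dendritic cells 1 (Batf2) was called higher and 2 (Zeb2 and Klf4) lower (median 0.03), and of 23 innate sensing genes 1 (Tlr11) higher and 1 (Ddx58) lower (median 0.02).

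The share of cDC1 depended on the cells it was counted among. Of the cells outside the B, naive T and pDC gates cDC1 were 2.20% in WT and 1.501% in KO (log2 ratio -0.55, interval -0.88 to -0.22), B cells being 32.6% of the WT and 4.01% of the KO library. Of the 4 dendritic gates they were 26.7% and 23.4% (-0.19, interval -0.47 to 0.10), and of cDC1 and cDC2 together 38.2% and 28.1% (-0.44, interval -0.71 to -0.17).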

How the data were processed

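Single-cell RNA of 1 WT and 1 KO sample was measured. The deposited values are raw UMI counts per gene and barcode in filtered matrices, whose headers name software version 5.0.0, per the file headers. Cell Ranger, STAR and mm10 are named, with no role or order, per the submitters' processing notes. The sources used here do not state an annotation release. Labels give a 3' v3 kit in the protocol and a v3.1 kit in the design text.

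Of 11432 WT and 11398 KO barcodes, those with at least 1000 UMIs, 500 genes and at most 10% mitochondrial UMIs were kept, and members were chosen. The members and lists were chosen with earlier results of these data known. UMIs were summed per library and gate. Ratios of KO over WT have exact conditional binomial 95% intervals, shares have Clopper-Pearson intervals, and genes needed 20 UMIs over both libraries. Intervals and the floor of 3 UMIs cover counting error only. Gates were compared with edgeR 4.0.16 in R 4.3.3, with Benjamini-Hochberg adjustment over all genes tested. Both procedures were tested on simulated data. For the KO over WT ratios the simulated counts held counting error only, so that test cannot show the effect of spread between cells. Doublets were scored with Scrublet in scanpy 1.11.5 and kept, other than in an alternative. Python 3.11.15, numpy 2.4.6 and scipy 1.17.1 were used.

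Genes were named by rule: the 12 each way with the interval bound farthest from no difference, at 30 or more UMIs and at least 0.1 of the level of the gate highest in that gene, up to 4 of each list by the same rank, all identity genes, and 10 each way by p for each gate comparison. Alternatives changed the choice of members, the minimum of UMIs, the scaling, thinning to 3000 UMIs and the tool (DESeq2 1.42.0).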

Additional observations from a re-analysis of the deposited data

Results flagged for a closer look

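Of the 299 genes called higher in KO cDC1 and tested in cDC2 of the same libraries, 34 were called lower there, and of the 427 called lower 25 were called higher there. The 18 genes given here are those also named in the description of cDC1 or added after their values were seen (Gzma, Nkg7, Arg1 and Timd4). These differences rest on 1 library a genotype and were not tested. Among cell cycle genes, higher in KO cDC1, the cDC2 log2 ratios of KO over WT were -0.86 for Ube2c, -0.85 for Top2a and -1.27 for Mki67, against 1.23, 1.01 and 0.63 in cDC1. Of the identity list, Cd36 had a cDC2 ratio of -2.99 against 0.61, and Ly75 -1.28 against 0.60. Among genes lower in KO cDC1, the cDC2 ratios were 1.15 for Gbp2, 2.48 for Rsad2, 1.61 for Ifit3, 1.26 for Enah and 0.70 for Ccl8, against -0.63, -1.30, -2.38, -2.89 and -3.62 in cDC1. The cDC2 ratios of the other type I interferon genes were 0.92 for Oasl1, 0.76 for Ddx58 and 0.68 for Rtp4, against -1.27, -1.38 and -0.88. Those of the remaining genes were 3.38 for Gzma, 2.25 for Nkg7, 1.46 for Ccl5, 2.11 for Arg1 and 2.45 for Timd4, against -2.42, -1.15, -0.79, -2.50 and -1.95. Beside Gzma and Nkg7, which cytotoxic lymphocytes express, 7 of 9 NK-cell genes were called higher and 0 lower in KO cDC2 (median 2.25), and the part of such RNA was not tested. In WT cDC1 a single cell held 41.98% of the Gbp2, 67.6% of the Rsad2, 80.6% of the Ifit3, 92.7% of the Enah, 60.3% of the Oasl1, 52.9% of the Ddx58 and 54.1% of the Gzma UMIs.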

How the results depend on the processing

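No paired analysis was possible because each genotype has 1 library and its replicate number is only the order of accession. Leaving out a library leaves nothing to compare. The count of genes higher in KO cDC1 (339) was 120 with every cell thinned to 3000 UMIs and 708 with each cell weighted alike. The count lower (450) was 226 without the top 5% of cells by UMIs. It was 125 without cycling cells, meaning those with 5 or more raw UMIs of the cell cycle list, deep cells among them. Without cells with 10 or more and 3 or more C1q UMIs it was 267 and 276. In the stricter set it was 204, thinned 114 and with each cell weighted alike 811. The share ratio was -0.55 outside the B, naive T and pDC gates and -0.44 of cDC1 and cDC2. DESeq2 gave 611 genes higher and 589 lower than in cDC2 and 831 higher than in mature dendritic cells, and a fit of only those gates gave 756 higher than in mature dendritic cells.

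Directions turned for 9 named genes, and the cause was not tested. Enah had log2 ratios of 0.79 with both Xcr1 and Clec9a required, 0.73 without doublet candidates, 0.71 without the top 5% by UMIs, 1.54 without cycling cells, 0.78 and 0.79 under the C1q limits of 10 and 3, 0.80 in the stricter set and 0.79 without its highest cell. Ccl8 had 0.48 and 0.48 under the C1q limits and 0.38 in the stricter set. Cxcl10 had -0.16 with at least 3 Xcr1 and Clec9a UMIs and -0.49 with both genes required. Gbp2 had 0.29 with at least 1 such UMI, 0.00206 with at least 3, 0.49 without cycling cells, 1.59 in the stricter set and 0.0526 thinned. Rsad2 had 0.0251 with at least 1 such UMI, 0.34 without the top 5%, 0.82 without cycling cells, 0.0506 and 0.0539 under the C1q limits, 0.17 in the stricter set and 0.12 without its highest cell. Oasl1 had 0.0231 and 0.0265 under the C1q limits and 0.35 in the stricter set. Ccl9 had 0.0979 without the top 5% and 2.24 without cycling cells, where Zeb2 had 0.67, and Ccl5 had 0.00582 without cells with 2 or more Siglech UMIs. TMM scaling shifted all genes by -0.009 on the log2 scale. With genes of 10 to 19 UMIs included, 10460 genes were compared, 364 called higher and 519 lower.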

Other observations

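Some of the genes that differed in cDC1 differed across the libraries as a whole. Ifi44l had 0 UMIs in all 11153 kept WT cells and 880 UMIs in 525 KO cells (4.72%). Its neighbour Ifi44 was detected in 1.95% of WT and 10.4% of KO cells. Ctse was detected in 32.6% of WT and 13.4% of KO cells, while B cells, many of which held it, made up a larger share of the WT library. Cxcl9 was detected in 3.54% of WT and 9.10% of KO cells.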
